A study of Mus musculus with 10 samples.

Results

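The probes described here are the 1104 of 60915 non-control probes of a mouse array whose names begin with humanlincRNA. They were chosen by that name alone, with no measured value. Whole blood RNA came from 10 female C57BL/6 mice aged 3 months, each on 1 array of a single-colour Agilent design by Arraystar for coding and long non-coding transcripts. The MWCNT group of 5 mice had received 40 µg of multi-walled carbon nanotubes, hollow fibres of rolled carbon sheets, by pharyngeal aspiration, in which a drop set behind the tongue is breathed into the lung, and its blood was taken 56 days later. The control group of 5 mice had received the vehicle. No gene was altered in either group, and the comparison asks how blood RNA differs between exposed and unexposed mice.

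Each name holds a number, a plus or minus sign and the ending P1, as in humanlincRNA0744+_P1. The 1104 probes carry 557 different numbers. For 547 of them both a plus and a minus probe are present, for 2 a plus probe alone and for 8 a minus probe alone. The files give the probe name again in place of a transcript identifier, so neither the transcript, the genome position, the strand meant by the sign nor the reason for the word human in a mouse design is stated in the sources used here. The probe sequences were not used here either, and no transcript is assigned to a probe below.

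Long intergenic non-coding RNAs (lincRNAs) are transcripts that lie between protein-coding genes and encode no known protein. Many are spliced and polyadenylated like messenger RNA, are present at low level and are limited to few cell types, and some act on chromatin, on transcription of neighbouring genes or as binding partners of proteins and small RNAs. Many human lincRNAs have a mouse counterpart by position with little shared sequence, so a probe designed from one species need not detect a transcript of the other. In whole blood most RNA comes from reticulocytes and white cells, and fewer cells of a type cannot be told apart from less RNA per cell. The erythroid and other blood cell markers carry no name in the files, so the tissue label was not checked against them.

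The arrays were scanned in 2 sets. The file headers place all 5 control arrays and MWCNT replicates 1 to 3 in a first scan run, and MWCNT replicates 4 and 5 in a second run that held no control. Within the MWCNT group scan run and mouse cannot be told apart, and group differences are therefore given over all 10 arrays and, where named, over the 8 arrays of the first run. Every level given is the log2 of a probe's background-subtracted signal minus the 75th percentile of its array, so 0 is the signal of a bright probe and each unit is a doubling. A probe's signal also depends on its own sequence. Levels of different probes, where set side by side, therefore describe brightness and not amount of RNA. No spot of these probes was saturated, and 4 of the probes had a spot marked as an outlier on at least 1 array, which was treated as missing.

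Of the 1104 humanlincRNA probes, 599 (54.3%) were well above background in mouse blood, by the scanner software's strict flag, on none of the 10 arrays, and 254 (23.0%) on all 10. The remaining 251 were above background on 1 to 9 arrays, with 87 on a single array, 71 on 2 and between 10 and 20 probes on each number of arrays from 3 to 9. The test took probes detected on 5 or more of the 10 arrays, which 310 of the 1104 (28.1%) were. None of these 310 was undetected in a whole group of 5. Under the less strict flag for a positive and significant signal, 40.0% to 49.3% of the 1104 passed on each first-run array and 58.1% and 60.1% on MWCNT 4 and 5. Among all other probes of the array, 37.0% were above background on no array, 38.7% on all 10, and 46.3% were tested.

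The share of humanlincRNA probes above background was lower than that of all other probes on 10 of 10 arrays. Of 649 mouselincRNA probes 190 were tested (29.3%) and 52.9% were above background on no array. Of 83 lincRNA exon probes 27 were tested (32.5%), but only 38.6% were above background on no array, and 54.2% were above it on an average second-run array, against 39.2% of humanlincRNA probes. Probes named for human and for mouse lincRNA were thus tested in shares of 28.1% and 29.3%. A further series of 923 probes, named with UP and a number and without a gene, had 259 tested (28.1%). These shares were set side by side with no test, since probes are not replicates.

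By array, the controls had 277, 322, 309, 319 and 306 humanlincRNA probes above background in replicates 1 to 5, or 27.8% ± 1.62 (SD, n = 5) of 1104. The MWCNT arrays had 292, 286, 311, 419 and 446, or 31.8% ± 6.86 (SD, n = 5). Replicates 4 and 5 of the MWCNT group, the second scan run, were higher than the other 8 arrays, which overlapped between the groups. The difference between the group means was 4.00 percentage points over 10 arrays and -0.93 within the first run, where the 3 MWCNT arrays averaged 26.8% ± 1.18 (SD, n = 3). The second run had 1.43 times the first run's share for humanlincRNA probes and 1.27 times for all other probes. For mouselincRNA probes it was 1.46 times, for lincRNA exon probes 1.66 times and for the UP series 1.36 times. The mean shares in the first and second run were 27.4% and 39.2% for humanlincRNA probes, and 45.0% and 57.2% for all other probes.

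No humanlincRNA probe was above background on every array of 1 group and on none of the other. The counts were 0 probes on all 5 MWCNT and no control arrays (background of all 60915 probes 0.00164%) and 0 on all 5 control and no MWCNT arrays (background 0%). Within the first run 0 probes were on all 3 MWCNT and no control arrays (background 0.00164%). The reverse pattern, all 5 controls and none of 3 MWCNT arrays, was shown by 1 probe, humanlincRNA1428-_P1 (background 0.0492%), but it was above background on both arrays of the second run.

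Some humanlincRNA probes were above background in the second scan run alone, in about the share of the whole array. On both second-run arrays and on none of the 8 first-run arrays, 61 humanlincRNA probes (5.53%) were above background (background 4.91%), and on no second-run and all 8 first-run arrays 0 were (background 0.00164%). The 61 probes were dim in both runs. Their median unscaled signal was 22.5 scanner units (range 14.7 to 77.8) in the second run and 9.21 in the first. Tested humanlincRNA probes had median unscaled signals of 225.3 and 196.7 on MWCNT 4 and 5, against 102.7 to 126.4 on first-run arrays. The lowest level flagged well above background was -6.81 and -6.98 on MWCNT 4 and 5, against -5.95 to -5.28 on first-run arrays. Whether the 61 probes differed between runs beyond this was not tested. Under the software's less strict flag for a positive and significant signal, 27 probes (2.45%) passed on the second run alone, against 2.03% of all probes. Both shares were near those of the whole array. Of the 87 probes above background on a single array, 17 were so on MWCNT replicate 4 alone and 33 on MWCNT replicate 5 alone. Left to the first run, 394 of the 1104 probes were above background on at least 1 array, against 505 over all 10.

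Plus and minus probes were tested about equally often, and about as often with a tested partner as without. Of 549 plus probes 155 were tested (28.2%), and of 555 minus probes 155 (27.9%). Both probes were tested for 41 of the 547 numbers that have both, the plus probe alone for 113, the minus probe alone for 111 and neither for 282. A minus probe was tested in 26.6% of the numbers whose plus probe was tested and in 28.2% of those whose plus probe was not. For 130 numbers one probe was above background on all 10 arrays and its partner on none, 71 with the plus and 59 with the minus probe, while 32 had both on all 10.

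The 5 lowest-numbered pairs with both probes tested were taken as examples. humanlincRNA0065-_P1 read 1.47, 0.82, 0.45, 0.95 and 0.50 in controls 1 to 5 and 0.43, 1.34, 1.37, 0.93 and 0.20 in MWCNT 1 to 5. Its partner humanlincRNA0065+_P1 read -4.01, -4.17, -4.69, -4.25 and -4.52 in controls and -4.77, -4.62, -4.72, -3.76 and -3.90 in MWCNT. The groups overlapped for both, but the plus probe was highest on the 2 second-run arrays and the minus probe was not. For number 0305, the minus probe lay between -0.35 and 0.50 on all 10 arrays, while the plus probe humanlincRNA0305+_P1 ran from -6.37 to -2.60 and was highest on the second run. For number 0272, humanlincRNA0272+_P1 read -3.80 and -3.88 in the second run and -7.38 to -5.08 in the first, against -3.80 to -2.67 over all arrays for humanlincRNA0272-_P1. Both probes of number 0312 and both of number 0164 had MWCNT levels that overlapped the controls. In these pairs the minus probe was highest on the 2 second-run arrays and the plus probe was not. MWCNT 4 and 5 read -1.61 and -1.82 for humanlincRNA0312-_P1, and -1.94 and -2.11 for humanlincRNA0164-_P1. Over the 41 pairs, the log2 fold changes of MWCNT against control had the same sign in 21 and opposite signs in 20, and in the first run the same sign in 20 and opposite signs in 21.

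The tested humanlincRNA probes had mean levels from -6.19 to 6.84, with quartiles at -4.68, -3.30 and -1.42. For all tested probes the quartiles were -4.39, -2.85 and -0.56. The mean level was above the array's 75th percentile for 50 of the 310 (16.1%) and for 20.6% of all tested probes. The median level of the 310 was -3.53 to -3.31 in the controls, -3.41 to -3.36 in MWCNT 1 to 3, -2.98 in MWCNT 4 and -3.20 in MWCNT 5. The median over all tested probes stayed between -2.89 and -2.79 on all 10 arrays.

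The 5 strongest signals came from probes above background on all 10 arrays. The highest, humanlincRNA0970-_P1, read 7.02, 6.99, 7.13, 7.19 and 7.0 in controls and 7.15, 6.98, 7.02, 6.21 and 5.75 in MWCNT. It was level across the first run and lower on both second-run arrays. humanlincRNA2397+_P1 read 5.68, 5.75, 5.74, 6.07 and 5.80 in controls and 5.78, 5.81, 6.10, 5.44 and 5.07 in MWCNT. humanlincRNA1739+_P1 read 5.51, 5.56, 5.68, 5.92 and 5.62 in controls and 5.62, 5.60, 5.89, 5.11 and 4.90 in MWCNT. Both were highest on control 4 and MWCNT 3 and lowest on the second run, at log2 differences between runs of -0.64 and -0.70 that turned to 0.21 and 0.13 after quantile normalization. For humanlincRNA0970-_P1 that difference was -1.07, and -0.17 after quantile normalization.

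humanlincRNA2163-_P1 read 5.17, 5.21, 5.27, 5.09 and 5.96 in controls and 5.87, 5.83, 5.37, 4.04 and 4.06 in MWCNT. Control 5 lay with MWCNT 1 and 2, above the other controls. humanlincRNA1145+_P1 differed between scan runs by -0.25, and by 0.44 after quantile normalization, at 4.75, 4.79, 4.70, 4.89 and 4.68 in controls and 4.61, 4.94, 4.38, 4.43 and 4.36 in MWCNT. The log2 fold changes of these 5 probes over 10 arrays, -0.44 ± 0.26 (SE) for humanlincRNA0970-_P1 and between -0.31 and -0.17 for the others, depended on the scaling. After quantile normalization they were -0.05 for humanlincRNA0970-_P1, -0.02 for humanlincRNA2163-_P1, 0.17 for humanlincRNA2397+_P1, 0.12 for humanlincRNA1739+_P1 and 0.09 for humanlincRNA1145+_P1, the last 3 with the sign turned.

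At the middle of the range, the 5 tested probes nearest the median level were humanlincRNA1967-_P1, humanlincRNA0740+_P1, humanlincRNA2182-_P1, humanlincRNA2125+_P1 and humanlincRNA0272-_P1. Their levels lay between -4.18 and -2.61 on all arrays, from signals of 85.3 to 296.8 scanner units. At this brightness the spread was moderate, with an SD over the 8 first-run arrays of 0.15 for humanlincRNA2125+_P1 and 0.24 to 0.27 for the others.

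Between mice, humanlincRNA probes spread about as much as other probes. The median SD of the tested probes was 0.305 over the 5 controls (0.297 for other tested probes), 0.467 over the 5 MWCNT arrays (0.453) and 0.241 over the 3 MWCNT arrays of the first run (0.242). In the brightest quartile of levels the 60 humanlincRNA probes spread more than others, with a median SD of 0.302 against 0.237 in controls and 0.322 against 0.213 in the MWCNT arrays of the first run. In the second quartile, counted from the dimmest, the 80 humanlincRNA probes had 0.298 against 0.298 in controls and 0.171 against 0.236 in the MWCNT arrays of the first run, the opposite order.

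Between MWCNT and control mice, no humanlincRNA probe changed at an adjusted p under 0.05 over the 10 arrays. limma, with p-values adjusted after Benjamini and Hochberg over the 28010 probes tested, called 0 of 310 (background 0%), and the lowest adjusted p was 0.807. Without adjustment, 9 probes had a p under 0.05, 4 of them higher in MWCNT (background 1.83% higher) and 5 lower (background 1.08% lower), or 2.90% of 310 in all, near the background share. Leaving out 1 array gave 5 such probes without MWCNT 4 (1.61%, against 1.46% of all tested probes) or control 5 (2.35% of all), 15 without MWCNT 2 (4.84%, against 6.89%) and 31 without MWCNT 1 (10.0%, against 9.44%). The log2 fold changes ran from -0.95 to 1.65, with 180 above 0 and 130 below and a median of 0.06, against -0.04 over all tested probes. That median was -0.04 after normexp background correction, which shrinks differences of dim probes, when it was -0.11 over all tested probes. The 95% confidence interval of the fold change lay within 2-fold in both directions for 219 of the 310 (70.6%, against 76.9% of all tested probes) and within 4-fold for 304.

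Among the 4 probes higher at an unadjusted p under 0.05, humanlincRNA0661-_P1 read -6.61, -5.67, -5.88, -5.47 and -7.94 in controls and -5.26, -5.14, -5.41, -4.51 and -5.55 in MWCNT. All 5 MWCNT arrays but only 2 controls were above background, and only MWCNT 5 lay below the highest control. Its log2 fold change was 1.14 ± 0.41 (SE), 1.05 in the first run and 0.07 after normexp. humanlincRNA0847+_P1 read -3.65, -5.30, -5.15, -5.63 and -3.55 in controls and -4.08, -4.15, -3.86, -2.08 and -2.37 in MWCNT, a log2 fold change of 1.35 ± 0.52 (SE) over 10 arrays and 0.62 ± 0.47 (SE) in the first run. Controls 1 and 5 lay above MWCNT 1 to 3, and the second-run arrays were highest.

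humanlincRNA0297-_P1 had a fitted fold change of 1.65 ± 0.70 (SE), but only 1 of 5 controls and 4 of 5 MWCNT arrays were above background for it. Its levels were -5.62, -5.61, -5.98, -6.62 and -6.27 in controls and -5.06, -5.69, -1.02, -5.01 and -5.05 in MWCNT, so MWCNT 3 stood apart from the other 9 arrays, at a signal of 531 scanner units, and the fold change was 0.82 without it and 2.10 in the first run. humanlincRNA1523+_P1 read -2.33, -3.61, -2.24, -3.25 and -2.72 in controls and -1.99, -2.26, -1.82, -0.71 and -3.06 in MWCNT, at 0.86 ± 0.40 (SE) and, in the first run, 0.80 ± 0.31 (SE). It was above background on all 10 arrays, and MWCNT 2 and 5 lay within the range of the controls. The next 6 by p had log2 fold changes from 0.38 to 0.54. For 3 of them, humanlincRNA1037+_P1, humanlincRNA2125+_P1 and humanlincRNA0220+_P1, the fold change was 0.54, 0.41 and 0.48 over 10 arrays. In the first run it was 0.15, 0.10 and 0.10, and MWCNT 4 and 5 held their highest levels. humanlincRNA1612+_P1 was also highest on MWCNT 4 and 5, at 0.38 over 10 arrays and 0.23 in the first run. humanlincRNA1211-_P1 and humanlincRNA2237+_P1 were at 0.48 and 0.45 over 10 arrays and 0.45 and 0.44 in the first run.

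Among the 5 probes lower at an unadjusted p under 0.05, humanlincRNA0744+_P1 was the only one of the 310 with every MWCNT array below every control (background 0.182%), and 0 had every MWCNT array above every control (background 0.171%). It read -5.68, -5.23, -5.29, -5.33 and -5.56 in controls and -7.12, -5.87, -5.76, -5.87 and -6.07 in MWCNT, a log2 fold change of -0.72 ± 0.25 (SE). Only 3 controls and both second-run arrays were above background, at signals of 31.4 scanner units or less, so it lay at the limit of detection. humanlincRNA1219-_P1 was as dim, at -5.34, -6.23, -5.08, -5.13 and -4.58 in controls and -5.75, -6.54, -5.90, -5.48 and -6.56 in MWCNT. None of the first-run MWCNT arrays was above background for either probe. Levels of MWCNT 1 to 3 were raised to at least the lowest level well above background on their array. The control mean was then 1.00-fold theirs for humanlincRNA0744+_P1 and 1.11-fold for humanlincRNA1219-_P1. limma gave both probes an adjusted p of 1 in the first run. Only 3 and 4 of the 5 controls were above background, so these ratios are not lower bounds. They also leave out the variation between mice.

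humanlincRNA0900-_P1 was above background on all 10 arrays and kept its fold change within the first run. It read -4.36, -4.00, -4.24, -4.37 and -3.80 in controls and -4.38, -4.87, -4.69, -4.89 and -4.34 in MWCNT, with -0.48 ± 0.19 (SE) over 10 arrays and -0.49 ± 0.19 (SE) in the first run. Only MWCNT 5 overlapped the range of the controls. humanlincRNA1050+_P1, the one bright probe of these 5, read 2.94, 3.18, 2.87, 3.02 and 3.11 in controls and 2.80, 3.14, 2.41, 1.83 and 2.04 in MWCNT. Its fold change of -0.58 ± 0.24 (SE) was -0.24 ± 0.18 (SE) in the first run, and MWCNT 4 and 5 were its lowest arrays. humanlincRNA0525-_P1 read -4.72, -6.13, -5.29, -5.92 and -4.99 in controls and -4.95, -6.11, -6.79, -6.60 and -6.68 in MWCNT, with the groups overlapping through MWCNT 1 and 2 and 3 of 5 arrays of each group above background. Its fold change was -0.82 over 10 arrays and -0.54 in the first run.

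The next 5 lower probes by p had log2 fold changes from -0.95 to -0.44 and included humanlincRNA0970-_P1, the strongest signal described above. Of the other bright ones among them, 2 had a like order of arrays. humanlincRNA0267-_P1 read 3.02, 3.28, 3.18, 2.96 and 3.84 in controls and 3.42, 3.42, 2.39, 1.72 and 1.99 in MWCNT. humanlincRNA0955+_P1 read 3.31, 3.67, 3.67, 3.16 and 4.77 in controls and 4.04, 3.73, 2.31, 2.60 and 2.25 in MWCNT. Both were highest on control 5 and, of the first run, lowest on MWCNT 3, with MWCNT 1 and 2 above controls 1 to 4. Their fold changes were -0.67 and -0.73 over 10 arrays and -0.18 and -0.36 in the first run. Every one of the 20 probes named by p over 10 arrays had an adjusted p of 0.807, and 1 in the first run.

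In the first scan run alone, 5 controls against 3 MWCNT mice, limma again called 0 of the 310, with a lowest adjusted p of 0.643. Without adjustment, 22 probes had a p under 0.05, 6 of them higher (background 1.22%) and 16 lower (background 2.26%), or 7.10% of 310. The 16 lower probes were 5.16% of the 310, above the background share. Leaving out any 1 of the 8 arrays gave 15 to 23 probes (4.84% to 7.42%, against 2.69% to 4.38% of all tested probes), 13 to 18 of them lower. By the positions in the file headers, controls 1 to 4 lay in 1 column of the first run and control 5 with MWCNT 1 to 3 in the other, and the part of position in these differences was not tested. Every MWCNT array of the run lay above every control for 3 probes (background 0.871%) and below for 9 (background 1.58%). The median log2 fold change was 0.01 (0.03 over all tested probes), and the interval lay within 2-fold for 258 probes (83.2%, against 87.7%).

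For the 5 lower probes of the smallest p in the first run, the second-run mice did not read low. humanlincRNA1398-_P1, a bright probe, read 2.42, 2.46, 1.83, 2.27 and 2.09 in controls and 1.44, 1.45 and 1.44 in MWCNT 1 to 3, a fold change of -0.77 ± 0.18 (SE, adjusted p = 0.643). MWCNT 4 and 5 read 2.85 and 2.82, above every control. humanlincRNA0479+_P1 read -1.92, -1.28, -1.96, -1.80 and -1.53 in controls, -2.14, -2.60 and -2.71 in MWCNT 1 to 3 and -0.88 and -0.77 in MWCNT 4 and 5. humanlincRNA0998+_P1 read -0.41, -0.62, -1.24, -0.60 and -0.59 in controls, -2.0, -1.17 and -1.47 in MWCNT 1 to 3 and 1.01 and 0.82 in MWCNT 4 and 5, the first-run groups overlapping through control 3 and MWCNT 2.

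The other 2 of these 5 were dim. humanlincRNA0561-_P1 read -4.31, -4.69, -4.78, -4.41 and -4.32 in controls and -6.10, -5.38, -5.00, -3.72 and -4.37 in MWCNT, above background on only 1 of the 3 first-run MWCNT arrays. humanlincRNA0305+_P1 read -3.91, -4.02, -4.77, -4.28 and -4.30 in controls and -6.29, -4.60, -6.37, -2.60 and -2.86 in MWCNT, again with 1 of 3. The first-run fold changes of the 5 probes were -1.50 to -0.77, and over 10 arrays they were -0.42 to 0.13. Both estimates use the same 5 controls and the same MWCNT 1 to 3.

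Of the higher probes of the first run, humanlincRNA0246-_P1 read -2.43, -2.97, -2.23, -2.84 and -3.12 in controls and -2.13, -2.01, -2.08, -1.56 and -3.18 in MWCNT, so MWCNT 1 to 4 lay above every control and MWCNT 5 below. humanlincRNA2356-_P1 read -4.64, -4.38, -4.36, -4.47 and -4.60 in controls, -3.70, -4.03 and -4.34 in MWCNT 1 to 3, all above the controls, and -5.49 and -4.98 in MWCNT 4 and 5, both below. humanlincRNA0857+_P1 lay between -4.66 and -3.78 in controls and read -3.41, -4.13, -3.40, -3.09 and -4.93 in MWCNT. humanlincRNA0297-_P1 and humanlincRNA1523+_P1, described above, completed the 5.

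Within the MWCNT group, many humanlincRNA probes differed between the 2 second-run arrays and the 3 of the first run. limma called 90 of the 310 humanlincRNA probes at an adjusted p under 0.05 (29.0%), 65 higher on the second run (background 11.9% of 28009) and 25 lower (background 15.1%). So 21.0% of these probes were higher, above the background share, and 8.06% lower, below it. The higher probes had a median log2 difference of 1.23 and the lower ones of -1.15, with 45 and 21 of them beyond 2-fold. The count rested on single arrays: it was 28 without MWCNT 1 (3.17% of all tested probes), 24 without MWCNT 3 (3.35%), 90 without MWCNT 5 (30.7%) and 0 without MWCNT 2 or MWCNT 4. Without MWCNT 4 or 5 the second run has 1 array, which is assumed to vary like the first run's. In the fits with 0 calls, 0 probes of the whole array were called too. Without MWCNT 2, limma gave 107 humanlincRNA probes at an unadjusted p under 0.05 (34.5%, against 38.9% of all tested probes).

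The scaling moved this split. After quantile normalization 68 humanlincRNA probes were higher (background 12.7%) and 17 lower (background 7.79%), and after normexp 50 were higher (background 10.9%) and 66 lower (background 38.5%). The median log2 difference of the 310 was 0.14 (-0.20 over all tested probes), 0.23 after quantile normalization (-0.07) and -0.17 after normexp (-0.36). The sign of the probes' median thus turned with normexp, while it lay above that of all tested probes in each of these 3 scalings. Split by level into quartiles of all tested probes, the share called higher was 14.9%, 26.3%, 28.9% and 13.3% from the dimmest to the brightest quartile, against 8.92%, 12.2%, 15.7% and 10.4% of other probes. The share called lower was 3.19%, 7.50%, 7.89% and 16.7%, against 7.21%, 9.77%, 14.3% and 29.3%.

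The 3 higher and 3 lower probes of the smallest p between runs were picked after their values were seen. humanlincRNA1526-_P1 read -3.32, -3.61 and -3.28 in MWCNT 1 to 3 and -0.91 and -1.34 in MWCNT 4 and 5, a log2 difference of 2.28 ± 0.24 (SE, adjusted p = 0.0124). The controls lay between -3.46 and -2.62. humanlincRNA0949+_P1 read -4.85, -4.86 and -5.15 against -2.47 and -2.94, and the controls -5.03 to -3.44. humanlincRNA1428-_P1, the probe on all controls and on no first-run MWCNT array, read -5.62, -5.88 and -6.05 against -3.49 and -3.84, and -4.92, -5.50, -5.41, -4.83 and -4.69 in controls. For it the control mean was at least 1.27-fold that of MWCNT 1 to 3 (adjusted p = 0.900), at group means of -5.07 and -5.85. This bound leaves out the variation between mice.

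The controls lay between the runs' MWCNT arrays for humanlincRNA1428-_P1. Of the lower probes, humanlincRNA2163-_P1 read 5.87, 5.83 and 5.37 against 4.04 and 4.06, a log2 difference of -1.64 ± 0.24 (SE, adjusted p = 0.0160), or -0.98 after quantile normalization. humanlincRNA1006-_P1 read 0.49, 0.82 and 0.39 against -1.06 and -0.99, and 0.27 to 0.74 in controls, a difference of -1.59 that quantile normalization left at -1.58. humanlincRNA2473+_P1 read -3.40, -3.50 and -3.42 against -5.27 and -4.76, and -3.99 to -3.46 in controls. For humanlincRNA2163-_P1, humanlincRNA1006-_P1 and humanlincRNA2473+_P1 the second-run arrays lay below all 8 arrays of the first run.

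The authors' deposited table held all 1104 humanlincRNA probes. For the tested probes its columns correlated with the levels at 0.999 to 1.00 across probes, which are not independent replicates. After quantile normalization the scanner values lay within a median of 0.0016 to 0.0073 log2 units of it on each array. With that table as input, limma called 0 of the 310 between MWCNT and control. At an unadjusted p under 0.05 limma gave 9 (2.90%, against 2.69% of all tested probes). On the second run 67 were called higher (background 12.4%) and 18 lower (background 7.63%). The deposited fold changes of the 9 probes at an unadjusted p under 0.05 over 10 arrays ran from -0.88 to -0.48 for the 5 lower and from 0.84 to 1.62 for the 4 higher.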

How the data were processed

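Groups and replicate numbers came from the labels, and each array is a separate mouse. Per the labels' protocols, blood RNA was freed of ribosomal RNA, amplified by random priming along the transcript, labelled with Cy3 and hybridised to the Arraystar array. Per the file headers, Agilent Feature Extraction 11.0.1.1 gave each spot's intensity, background-subtracted but not adjusted between arrays, on a design of build mm9. The authors' deposited table holds log2 values, of which the normalization is not given here.

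Each array had 62939 spots, of which control and negative spots were left out and spots of a probe averaged. The log2 intensity minus the array's 75th percentile over the 23404 probes above background on all arrays was the level. Probes above background on at least 5 of 10 arrays were tested 2-sided with limma 3.58.1 (lmFit, eBayes) in R 4.3.3, and p-values were adjusted after Benjamini and Hochberg over them all. A lower bound sets the detected group's mean level against the mean, per array, of the higher of the probe's own level and the lowest level well above background. It bounds the ratio of these means only where every array of the detected group was above background, and leaves out the variation between mice. The step was tested on simulated data. The number of arrays limits the precision.

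The naming rule uses no measured value, but the probes and lists were chosen with earlier results of these data known. Named probes were the 10 higher and 10 lower of smallest unadjusted p, 5 and 5 in the first scan run, the 5 of highest and 5 nearest the median level, any called and the first 5 tested pairs. Alternatives were quantile and cyclic loess normalization, the percentile over all probes, normexp with an offset of 50 (on the median spot signal, as the mean signal was not used here), the deposited values, testing every probe or those on 10 arrays, scan run and replicate blocks, the first scan run alone, array weights and each array left out. Comparisons between scan runs, and settings within the first run, were added after seeing the data. Deviations of same-numbered mice from their group means had correlations of -0.45, 0.08, 0.28, 0.33 and -0.20. Since 2 of 5 mice were most like the mouse of their own number, no pairing was assumed.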

Additional observations from a re-analysis of the deposited data

Results flagged for a closer look

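Among 60 groups of 5 arrays, 56 of them levels of the 28 probes named by p and 4 the detected shares and median levels of each group, 4 held an array further from its nearest neighbour than the 95% critical value of Dixon's ratio, 0.71, allows. Chance gives about 1 in 20 groups, or 3 of 60. humanlincRNA0297-_P1 read -1.02 on MWCNT 3, with the next array at -5.01. humanlincRNA0744+_P1 read -7.12 on MWCNT 1, with the next at -6.07. humanlincRNA0998+_P1 read -1.24 on control 3, with the next at -0.62. humanlincRNA2125+_P1 read -3.19 on control 4, with the next at -3.53.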

How the results depend on the processing

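The count of 0 humanlincRNA probes called between MWCNT and control held in every setting run. The count of 9 at an unadjusted p below 0.05 was 4 with normexp (1.29%, against 3.26% of all tested probes). With more and fewer probes tested, it was 29 with no filter (2.63%, against 2.70%) and 3 with the filter on 10 arrays (1.18%, against 2.88%). It was 18 with scan run as a block (5.81%, against 3.54%), 22 in the first run alone (7.10%, against 3.48%) and 32 with array weights (10.3%, against 8.42%). Leaving out 1 array gave 5 (without MWCNT 4 or control 5) to 31 (without MWCNT 1), and 15 without MWCNT 2. The replicate number as a block, not taken as a pairing, gave 0 called and 11 at an unadjusted p under 0.05 (3.55%, against 3.17% of all tested probes). The median log2 fold change was -0.22 with no filter, against -0.14 over all probes of the array. The count of 22 in the first run was also 22 in the deposited values (against 3.64% of all tested probes) and after quantile normalization (against 3.67%). Between scan runs, cyclic loess gave 15 lower probes and normexp 66, and leaving out 1 array gave 0 to 67 higher and 0 to 23 lower. The lower probes were 4.84% of the 310 with cyclic loess (6.14% of all tested probes) and 21.3% with normexp (38.5%). Without MWCNT 1, 7.42% were higher (2.88% of all) and 1.61% lower (0.296%). Without MWCNT 3, 6.45% were higher (2.79%) and 1.29% lower (0.557%). The largest counts came from the fit without MWCNT 5, which left 1 array in the second run, so its shares are not compared. The less strict flag gave 27 probes seen on the second run alone (2.03% of all probes).

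Of 849 alternative fold changes over 41 named probes, 0 passed the adjusted threshold and 70 turned sign. The 41 are not all the probes named, and the changes listed here cover these 41 alone. Left out were, for example, humanlincRNA2182-_P1 and humanlincRNA1428-_P1, which turned from 0.03 and 0.09 to -0.04 and -0.03 with normexp. With scan run as a block, and equally in the first run alone, humanlincRNA2356-_P1 was 0.47 (0.19 with array weights), humanlincRNA0998+_P1 -0.85 (-0.56), humanlincRNA0272+_P1 -0.89 (-0.47), humanlincRNA0164-_P1 -0.18 (-0.15), humanlincRNA2163-_P1 0.35 (0.12), humanlincRNA2397+_P1 0.09 (0.15), humanlincRNA1739+_P1 0.05 (0.10), humanlincRNA0272-_P1 -0.07 and humanlincRNA0312-_P1 -0.05. Under quantile normalization and in the deposited values humanlincRNA2397+_P1 was 0.17, humanlincRNA1739+_P1 0.12, humanlincRNA1145+_P1 0.09 and humanlincRNA0272-_P1 -0.01, and after cyclic loess 0.15, 0.08, 0.05 and -0.01. Normexp gave -0.04 for humanlincRNA0272-_P1, -0.01 for humanlincRNA0164+_P1 and -0.05 for humanlincRNA0312+_P1, and the percentile over all probes gave -0.02 for humanlincRNA0272-_P1 and -0.01 for humanlincRNA0065-_P1. Leaving out 1 array gave -0.22 to 0.23 for humanlincRNA2356-_P1, -0.78 to 0.17 for humanlincRNA0305+_P1, -0.39 to 0.10 for humanlincRNA0479+_P1, -0.26 to 0.49 for humanlincRNA0998+_P1, -0.16 to 0.11 for humanlincRNA0272-_P1, -0.17 to 0.08 for humanlincRNA0065+_P1, -0.12 to 0.18 for humanlincRNA0065-_P1 and -0.24 to 0.66 for humanlincRNA0272+_P1. The cause of these changes was not tested. The 599 probes never above background allow no comparison, and no control was scanned in the second run.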
